A study of Homo sapiens with 45 samples.

Results

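The genes described here are HERPUD1, XBP1, HSPA5, MANF, DNAJB9, SDF2L1, HSP90B1, PDIA4, CRELD2 and DNAJC3, which code for proteins of the endoplasmic reticulum (ER) or for regulators of folding there. They were taken by gene symbol from the deposited count table and are 10 of its 60676 genes. Each symbol matched 1 gene, and all 10 passed the filter on low counts. After 4 h of drug, HERPUD1 and XBP1 were the members called higher, by up to 3.96-fold, and only in lines that keep the kinase GCN2. With azacytidine, XBP1 passed in only some of these lines. The azacytidine responses of both genes were called different between RNF25 GCN2 double knockout and RNF25 knockout, for XBP1 not in every alternative run. Between GCN2 knockout and reference cells neither difference was called, though that of HERPUD1 passed in 2 of 21 alternative runs. The HERPUD1 differences were -1.56 in the first contrast and -1.29 in the second on the log2 scale. These contrasts were not tested against each other. HSPA5, the main chaperone of the ER, rose in no comparison with untreated cells and fell with halofuginone, in GCN2 knockout cells as well.

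The ER folds secreted and membrane proteins with the help of chaperones, disulfide isomerases and degradation factors. When unfolded proteins build up there, the sensors IRE1, PERK and ATF6 start the unfolded protein response, which raises the genes of these helpers. PERK acts by phosphorylating the translation factor eIF2, and the cytosolic kinase GCN2, which responds to uncharged tRNA and stalled ribosomes, phosphorylates the same factor. The program shared by these kinases is the integrated stress response, in which the transcription factor ATF4 is made and turns on its targets. HERPUD1 is known as a target of both programs, while HSPA5 and HSP90B1 are standard readouts of the ER branch driven by ATF6 and XBP1.

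The libraries come from HAP1, a near-haploid human cell line derived from KBM-7, a leukaemia line, and were made from polyA RNA. The edited lines were RNF25 KO and ZNF598 KO, which lack ubiquitin ligases that act at stalled ribosomes, eS31 K113R, with a lysine substitution in a ribosomal protein, GCN2 KO, and the double knockout RNF25 GCN2 DKO. The reference line was AAVS1, called after a genomic site that commonly serves as a harmless target of editing. Cells of all 6 genotypes received 5 uM azacytidine (azaC), a cytidine analogue, for 4 h or were left untreated, and RNF25 KO, GCN2 KO and AAVS1 cells also received 25 nM halofuginone (HF), which blocks the charging of prolyl-tRNA, for 4 h. The series title sets the work around RNF25, mRNA damage by azaC and the integrated stress response. Each of the 15 groups held 3 libraries labelled as biological replicates. Whether a line is 1 clone, whether untreated cells received a vehicle, and how cultures were kept apart are not stated in the labels, so the p-values measure the spread between these libraries.

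Total counts ran from 1135498 to 2478875 per library. AAVS1 untreated replicate 2 and RNF25 KO azaC replicate 2 stood apart in their trend on transcript GC content, and with both left out the calls of HERPUD1 with azaC and of MANF with HF in AAVS1 were lost, while no other call of a member changed. Untreated eS31 K113R replicates 2 and 3 carry a title and genotype label reading eS32_K223R and were placed by their described column name. EIF2AK4, the gene of GCN2, averaged 21.8 ± 2.39 counts per 1e6 counts (CPM; SD, n = 3) in untreated GCN2 KO cells, 39.3 ± 3.71 CPM in the untreated libraries labelled RNF25 GCN2 DKO and 43.7 ± 1.63 CPM in untreated AAVS1 cells, so this transcript does not check the label of the double knockout. RNF25 had 0 to 7 counts in any library and checks nothing. Of 8 haematopoietic markers none passed the filter and MPO and CD33 were at 0 in all libraries, whereas the summed level of 5 mesenchymal markers ran from 262.5 to 631.9 CPM, with VIM, COL1A1 and FN1 passing.

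HERPUD1 (ENSG00000051108, GRCh38 chr16:56932048-56944863, plus strand) codes for an ER membrane protein with a ubiquitin-like domain that takes part in ER-associated degradation, the route by which misfolded proteins are removed. XBP1 (ENSG00000100219, chr22:28794555-28800597, minus strand) codes for the transcription factor whose mRNA is cut by IRE1, and gene counts do not tell the spliced from the unspliced form. HSPA5 (ENSG00000044574, chr9:125234853-125241330, minus strand) codes for BiP, the ER Hsp70 chaperone. All 10 members are protein-coding, and these 3 share no exon bases with other annotated genes.

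The promoters of the members carry different known stress elements. Stretches are shown for the 4 members whose matches to the strings below lie outside the annotated gene. These include the 2 responding genes, the chaperone set against them and a gene with the same element as HERPUD1 that did not respond. The matches of HSP90B1 and CRELD2, also counted below, lie inside their annotated genes and are not printed. RefSeq windows (GRCh38.p14) from 250 bases before to 50 after the start of transcription were searched on both strands for the ER stress element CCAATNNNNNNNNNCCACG, the ER stress element II ATTGGNCCACG, the core of the unfolded protein response element TGACGTG and the C/EBP-ATF response element TGATGNAA. Capitals below mark the fixed letters of a match, and each stretch is given 5′ to 3′ on the strand of its gene.
HERPUD1, chr16:56931926-56932047, plus strand: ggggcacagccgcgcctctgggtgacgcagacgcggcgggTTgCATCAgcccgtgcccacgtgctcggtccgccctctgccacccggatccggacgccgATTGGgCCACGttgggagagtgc
XBP1, chr22:28800598-28800661, minus strand: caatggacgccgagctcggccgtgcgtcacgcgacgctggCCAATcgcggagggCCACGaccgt
HSPA5, chr9:125241351-125241449, minus strand: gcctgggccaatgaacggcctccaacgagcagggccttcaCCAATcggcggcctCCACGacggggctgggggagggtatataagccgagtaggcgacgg
SDF2L1, chr22:21642074-21642164, plus strand: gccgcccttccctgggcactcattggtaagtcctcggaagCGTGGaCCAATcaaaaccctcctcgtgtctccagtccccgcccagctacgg

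In the HERPUD1 stretch the first marked match is the C/EBP-ATF element read on the opposite strand and the second is the ER stress element II. The latter lies 117 to 107 bases before the RefSeq start, which is inside the gene coordinates printed above, so it is closer to the printed gene start. The XBP1 and HSPA5 stretches each hold 1 exact match to the ER stress element, and the SDF2L1 stretch holds an exact match to the ER stress element II on the opposite strand. Sequences that differ from a searched string, even by a single base, were not counted. The ER stress element was in 4 of the 10 member windows (XBP1, HSPA5, HSP90B1 and CRELD2) and in 0.0769% of all 35116 windows. The ER stress element II was in 2 (HERPUD1 and SDF2L1) and in 0.0541% of all windows. The C/EBP-ATF element was in the HERPUD1 window alone among the members, and in 3.62% of all windows, while the unfolded protein response core was in no member window and in 1.97% of all. A match is a string in the window and not a measured binding site.

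Without drug, no member passed between an edited line and AAVS1. Over the 18 untreated libraries HERPUD1 had a median of 47.4 CPM, XBP1 of 58.0 CPM and HSPA5 of 868.7 CPM. Per kilobase of exon, which allows genes to be compared, the untreated medians were 222.3 CPM for HSPA5, 108 for HSP90B1, 91.4 for MANF, 57.3 for SDF2L1, 19.2 for XBP1, 15.1 for CRELD2, 9.19 for HERPUD1, 6.91 for PDIA4, 6.14 for DNAJC3 and 6.02 for DNAJB9. HSPA5 was thus the most abundant of the group and HERPUD1 stood in its lower part. Against untreated AAVS1, 0 of 10 members passed an adjusted p under 0.05 in edgeR's quasi-likelihood test in untreated RNF25 KO (1.62% of all 11078 genes tested passed), ZNF598 KO (0.93%), eS31 K113R (2.87%), GCN2 KO (1.05%) or RNF25 GCN2 DKO (1.42%). DESeq2 and limma-voom also called 0. At an unadjusted p under 0.05 there were 2 members in ZNF598 KO, with 8.93% of all genes, 2 in eS31 K113R, with 11.8%, and 0 in the other lines. The lowest HERPUD1 level of any group was in untreated ZNF598 KO cells, at 24.4, 33.1 and 34.2 CPM, against 64.1, 37.7 and 45.9 CPM in untreated AAVS1 cells. The ranges of these groups did not overlap, but the log2 difference of -0.66 ± 0.22 (SE) did not pass over all genes (adjusted p = 0.184).

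AzaC raised HERPUD1 in 4 of the 6 genotypes. In RNF25 KO cells it had 182, 148 and 174 CPM with azaC and 57.6, 43.2 and 50.2 CPM untreated. In eS31 K113R cells it had 205, 159.7 and 184 CPM with azaC and 53.1, 36.9 and 48.8 CPM untreated. In both lines every azaC library stood above every untreated one, with a gap wider than the spread within either group. The log2 change of HERPUD1 was 1.74 ± 0.20 (3.34-fold, adjusted p = 7.76e-08) in RNF25 KO and 1.99 ± 0.20 (3.96-fold, adjusted p = 2.94e-09) in eS31 K113R. These changes kept an adjusted p under 0.05 in every alternative run.

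The estimated rise was smaller in ZNF598 KO and AAVS1 cells. None of the differences in azaC response tested among the lines that keep GCN2 passed, as given below. HERPUD1 had 75.8, 78.9 and 72.0 CPM in azaC-treated ZNF598 KO cells and 24.4, 33.1 and 34.2 CPM in untreated ones. It had 105, 99.7 and 103 CPM in azaC-treated AAVS1 cells and 64.1, 37.7 and 45.9 CPM in untreated ones. Neither pair of groups overlapped, and the untreated AAVS1 libraries were the more scattered. The log2 change was 1.30 ± 0.21 (2.46-fold, adjusted p = 0.000373) in ZNF598 KO and 1.08 ± 0.20 (2.11-fold, adjusted p = 0.00344) in AAVS1. The AAVS1 call was lost without untreated AAVS1 replicate 2, one of the libraries that stood apart (0.91, adjusted p = 0.163), and when only AAVS1 azaC and untreated libraries were fitted (1.09, adjusted p = 1).

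No rise of HERPUD1 with azaC was detected in either line labelled as lacking GCN2. It had 55.1, 47.0 and 54.7 CPM in azaC-treated GCN2 KO cells and 66.4, 57.9 and 56.4 CPM in untreated ones, so the treated libraries lay just below. In RNF25 GCN2 DKO it had 51.4, 55.2 and 38.9 CPM with azaC and 50.9, 43.3 and 34.1 CPM untreated, and the groups overlapped. The log2 changes were -0.21 (95% interval -0.63 to 0.21, adjusted p = 1) and 0.18 (-0.24 to 0.61, adjusted p = 1). Both intervals end below the change in any of the other 4 lines.

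**Figure D1:**
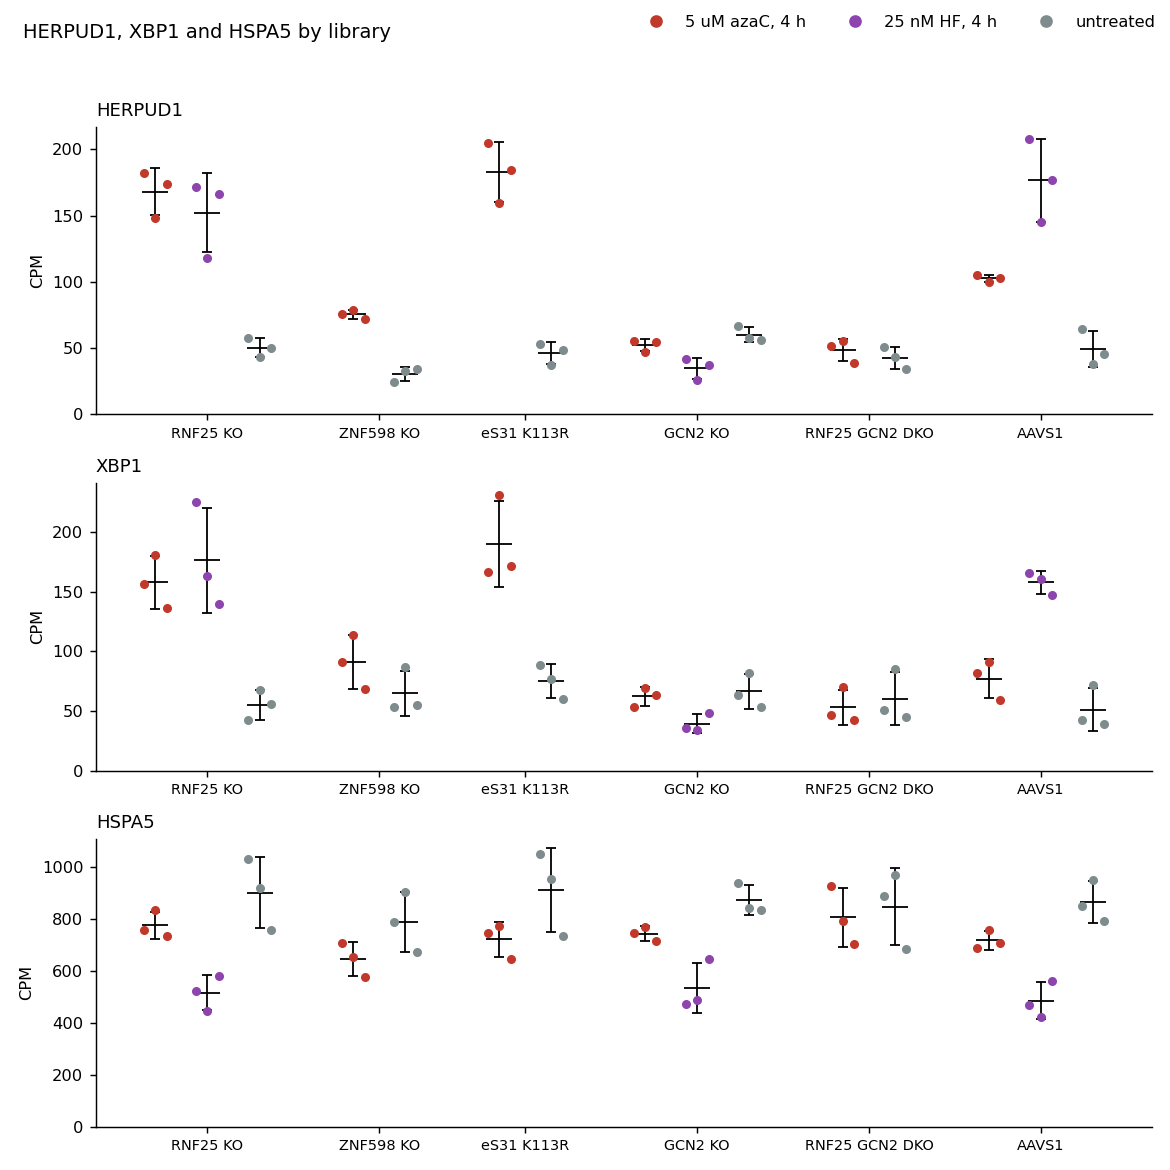
Levels of HERPUD1, XBP1 and HSPA5 in CPM (vertical axes, from 0) in each library, by line, with azaC, HF and untreated groups from left to right within a line. Points are libraries, and bars give the mean and SD of 3 libraries. HERPUD1 and XBP1 stand highest in azaC-treated eS31 K113R cells, at 183 and 189.9 CPM on average, and HSPA5 lowest in HF-treated AAVS1 cells, at 485 CPM.

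XBP1 rose with azaC in RNF25 KO and eS31 K113R cells. It had 156, 181 and 136 CPM in azaC-treated RNF25 KO cells and 42.4, 67.3 and 55.7 CPM in untreated ones. It had 167, 231.5 and 171 CPM in azaC-treated eS31 K113R cells and 88.8, 76.9 and 60.2 CPM in untreated ones. The treated and untreated libraries were fully apart in both lines. The log2 change was 1.51 ± 0.26 (2.85-fold, adjusted p = 0.00029) in RNF25 KO and 1.34 ± 0.25 (2.52-fold, adjusted p = 0.00136) in eS31 K113R. With only the untreated library whose title reads eS31 K113R kept, the eS31 K113R change was 1.10 and no longer passed (adjusted p = 0.424).

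In the other lines XBP1 did not pass. It had 90.8, 114 and 68.4 CPM in azaC-treated ZNF598 KO cells and 53.5, 86.8 and 54.7 CPM in untreated ones, and 81.6, 91.2 and 59.0 CPM in azaC-treated AAVS1 cells and 42.8, 71.9 and 38.9 CPM in untreated ones. In both lines the groups overlapped. The log2 change was 0.48 (95% interval -0.03 to 1.00, adjusted p = 1) in ZNF598 KO and 0.58 (0.06 to 1.10, adjusted p = 0.99) in AAVS1. XBP1 also overlapped in GCN2 KO, at 53.7, 69.6 and 63.5 CPM with azaC and 63.5, 82.3 and 53.4 CPM untreated, and in RNF25 GCN2 DKO, at 47.0, 69.9 and 42.4 CPM with azaC and 50.9, 85.6 and 44.8 CPM untreated. The changes there were -0.08 (-0.61 to 0.44) and -0.20 (-0.73 to 0.33).

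Over the group, 2 of 10 members passed with azaC in RNF25 KO, where 0.469% of all genes tested did, and 2 of 10 in eS31 K113R, where 0.515% did. In ZNF598 KO and in AAVS1, 1 of 10 passed, against 0.117% of all genes in each. In GCN2 KO and in RNF25 GCN2 DKO, 0 of 10 passed by edgeR, DESeq2 or limma-voom, and 0% of all genes passed in edgeR. At an unadjusted p under 0.05 there were 0 members in either line, with 3.65% of all genes in GCN2 KO and 2.62% in RNF25 GCN2 DKO. HERPUD1 and XBP1 were thus among 52 genes called in RNF25 KO and 57 in eS31 K113R.

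HF raised both genes in RNF25 KO and AAVS1 cells. HERPUD1 had 172, 118 and 167 CPM with HF and 57.6, 43.2 and 50.2 CPM untreated in RNF25 KO cells, and 208, 145.5 and 177 CPM with HF and 64.1, 37.7 and 45.9 CPM untreated in AAVS1 cells. XBP1 had 225, 163.5 and 140.1 CPM with HF and 42.4, 67.3 and 55.7 CPM untreated in RNF25 KO cells, and 166, 161 and 147.5 CPM with HF and 42.8, 71.9 and 38.9 CPM untreated in AAVS1 cells. Every HF library lay above every untreated one for both genes and both lines. HERPUD1 changed by 1.60 ± 0.20 (adjusted p = 2.76e-07) in RNF25 KO and by 1.86 ± 0.20 (adjusted p = 5.53e-09) in AAVS1 on the log2 scale. XBP1 changed by 1.67 ± 0.26 (adjusted p = 2.33e-05) and 1.60 ± 0.26 (adjusted p = 4.07e-05), and these 4 calls held in every alternative run.

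In GCN2 KO cells neither gene rose with HF. HERPUD1 had 41.5, 25.6 and 37.1 CPM with HF and 66.4, 57.9 and 56.4 CPM untreated, and XBP1 had 35.9, 34.2 and 48.4 CPM with HF and 63.5, 82.3 and 53.4 CPM untreated. For both genes all HF libraries lay below all untreated ones. HERPUD1 fell by 0.80 ± 0.21 on the log2 scale with an adjusted p of 0.0469, and this call was lost when any 1 of the 6 libraries was left out (adjusted p = 0.0642 to 0.33), with limma-voom (0.0735), with no filter (0.192) and with only these libraries fitted (0.0927). XBP1 stood at -0.73 ± 0.27 (adjusted p = 0.242).

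HSPA5 did not rise with either drug. With azaC it had 757, 834 and 733 CPM in RNF25 KO cells, against 1029, 918.5 and 755 CPM untreated, and the groups overlapped. Its log2 change with azaC lay between -0.34 and -0.07 in the 6 genotypes, below zero in each, and passed in none (lowest adjusted p = 0.735). In AAVS1 it had 688, 758 and 706 CPM with azaC and 849, 951 and 792 CPM untreated, and in GCN2 KO 745, 770.3 and 713.5 CPM with azaC and 938.5, 842 and 834 CPM untreated. In these lines every azaC library lay below every untreated one. The lowest unadjusted p was 0.0395, in eS31 K113R, where HSPA5 had 745, 771 and 646 CPM with azaC and 1049, 954.5 and 733.5 CPM untreated.

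With HF, HSPA5 fell in all 3 genotypes given the drug. It had 522, 446.5 and 580.5 CPM in HF-treated RNF25 KO cells and 1029, 918.5 and 755 CPM in untreated ones. It had 472, 487 and 646 CPM in HF-treated GCN2 KO cells and 938.5, 842 and 834 CPM in untreated ones, and 469, 423 and 562 CPM in HF-treated AAVS1 cells and 849, 951 and 792 CPM in untreated ones. The HF and untreated ranges were apart in each line. The log2 change was -0.80 ± 0.16 in RNF25 KO (adjusted p = 0.00168), -0.70 ± 0.16 in GCN2 KO (adjusted p = 0.013) and -0.83 ± 0.16 in AAVS1 (adjusted p = 0.000942). In GCN2 KO the call was lost without untreated replicate 1 (-0.65, adjusted p = 0.103), without HF replicate 1 (-0.62, adjusted p = 0.14) and without HF replicate 2 (-0.64, adjusted p = 0.106). In AAVS1 it was lost when only the 6 libraries compared were fitted (-0.83, adjusted p = 0.107).

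MANF, an ER protein that binds BiP and is also secreted (chr3:51385047-51389397), fell with HF in AAVS1 cells. It had 145, 133.5 and 174.5 CPM with HF and 221, 272 and 212 CPM untreated, with no overlap. The log2 change was -0.64 ± 0.17 (adjusted p = 0.0358). The call was lost without untreated AAVS1 replicate 1 (adjusted p = 0.0534) or 2 (0.213), and without HF AAVS1 replicate 1 (0.172) or 2 (0.213). It was also lost with no filter (0.19) and with only these libraries fitted (0.395). In RNF25 KO cells MANF had 193, 148 and 192 CPM with HF and 256, 246.5 and 199 CPM untreated (-0.39, adjusted p = 0.331), and in GCN2 KO cells 173, 164 and 181 CPM with HF and 233, 209.7 and 182.5 CPM untreated (-0.27, adjusted p = 0.661). In RNF25 KO and GCN2 KO, too, every HF library lay below every untreated one, though neither change passed.

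Over the group, HF called 2 members higher and 1 lower in RNF25 KO, where 1.23% of all genes tested were called higher and 0.506% lower. It called 0 higher and 2 lower in GCN2 KO, where 0.731% were called higher and 0.506% lower. It called 2 higher and 2 lower in AAVS1, where 1.06% were called higher and 0.487% lower. With the replicate number as a block, 381 genes rather than 171 were called in AAVS1, and the same members. In bulk samples such as these, fewer cells of a kind and less RNA per cell cannot be told apart, and a fall in CPM is a fall relative to all other counted RNA.

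**Figure D2:**
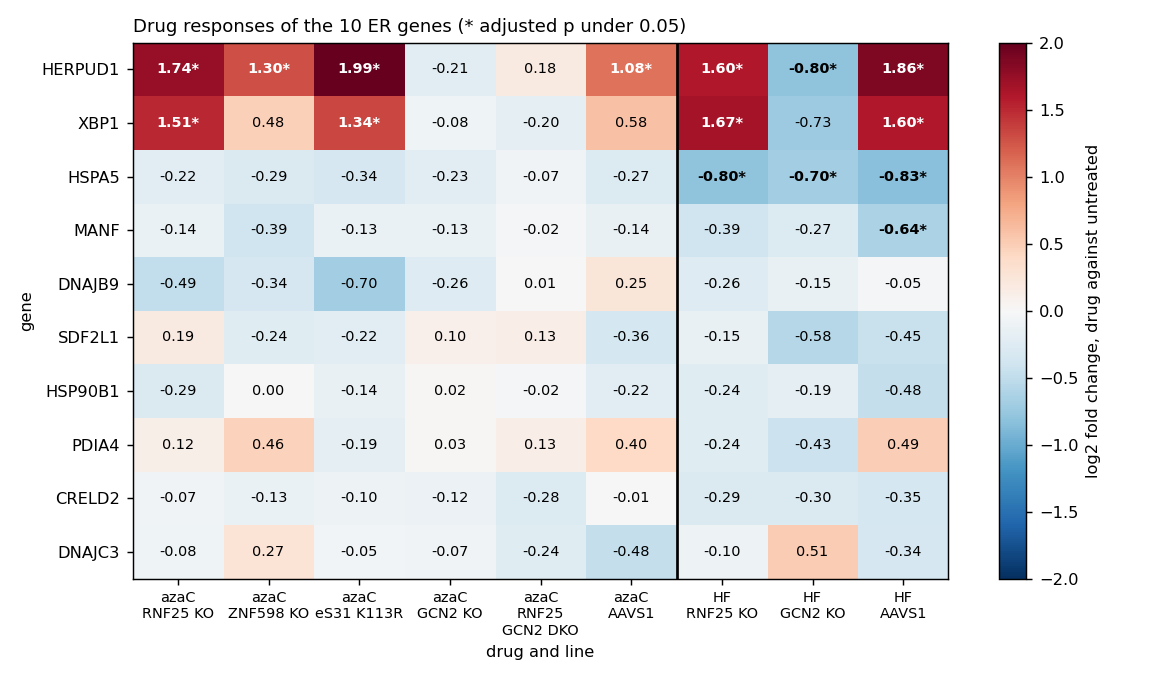
Log2 fold changes (drug against untreated) of the 10 genes, rows, in the 9 drug comparisons, columns, with azaC left and HF right of the black line. Red is higher and blue is lower with drug, and bold values with a star passed an adjusted p under 0.05. Beside HERPUD1 and XBP1, the starred values are HSPA5 with HF in 3 lines and MANF with HF in AAVS1, at -0.64.

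The remaining members passed in no drug comparison in edgeR. DNAJB9 (chr7:108569568-108574850) and DNAJC3 (chr13:95677139-95794989) code for J-domain partners of BiP, and SDF2L1 (chr22:21642261-21644298) for a partner of the ER J-domain proteins. HSP90B1 (chr12:103930107-103953645) codes for GRP94, the ER Hsp90, and PDIA4 (chr7:149003062-149028641) for a protein disulfide isomerase. CRELD2 (chr22:49918167-49927540) codes for an ER protein induced by ER stress. The exons of DNAJB9, HSP90B1 and CRELD2 lie for 6.45%, 4.81% and 3.25% of their length under exons of opposite-strand genes, and whether the counting used strand is not given in the sources used here.

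HSP90B1 was the most steady of the abundant genes. Its group means ran from 391 CPM in HF-treated AAVS1 cells to 594 CPM in untreated RNF25 GCN2 DKO cells, a ratio of 1.52. Its largest drug change, -0.48 ± 0.19 with HF in AAVS1, had 391 ± 51.1 CPM in HF-treated and 546 ± 163.6 CPM in untreated cells (SD, n = 3 each) and an adjusted p of 0.281. Its pseudogenes took few reads, with 57 counts of HSP90B2P and 1 count of HSP90B3P over all 45 libraries, against at least 442 counts of HSP90B1 in each library. XBP1P1 had 7 counts over all libraries, against at least 50 of XBP1 in each.

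SDF2L1, which shares the ER stress element II with HERPUD1, had group means from 38.9 CPM in HF-treated GCN2 KO cells to 79.8 CPM in azaC-treated RNF25 KO cells. In azaC-treated RNF25 KO cells its libraries ran from 55.3 to 110 CPM, against 60.1 to 79.2 CPM in untreated ones, and the change was 0.19 (95% interval -0.29 to 0.66). In HF-treated AAVS1 cells they ran from 34.7 to 68.9 CPM, against 60.0 to 74.4 CPM in untreated ones, and the change was -0.45 (-0.94 to 0.04). With azaC in AAVS1 they ran from 43.3 to 56.6 CPM, below all untreated libraries, and the change of -0.36 (-0.85 to 0.13) did not pass. These intervals end below the HERPUD1 changes in the same comparisons.

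CRELD2 had group means from 57.4 to 86.8 CPM and log2 changes from -0.35 to -0.01 over the 9 drug comparisons, all below zero and none passing. DNAJC3 had group means from 31.2 to 46.6 CPM, the highest in HF-treated GCN2 KO cells, where its change of 0.51 ± 0.25 had an unadjusted p of 0.046 and an adjusted p of 0.492. DNAJB9 and PDIA4 were the least abundant, with 9 to 47 and 19 to 90 counts per library. Their intervals were wide: DNAJB9 changed by -0.70 (95% interval -1.53 to 0.13) with azaC in eS31 K113R, and PDIA4 by 0.49 (-0.27 to 1.24) with HF in AAVS1. The HERPUD1 changes in the same comparisons, 1.99 and 1.86, lie outside these intervals, and smaller changes of DNAJB9 and PDIA4 were not detectable at this depth.

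**Figure D3:**
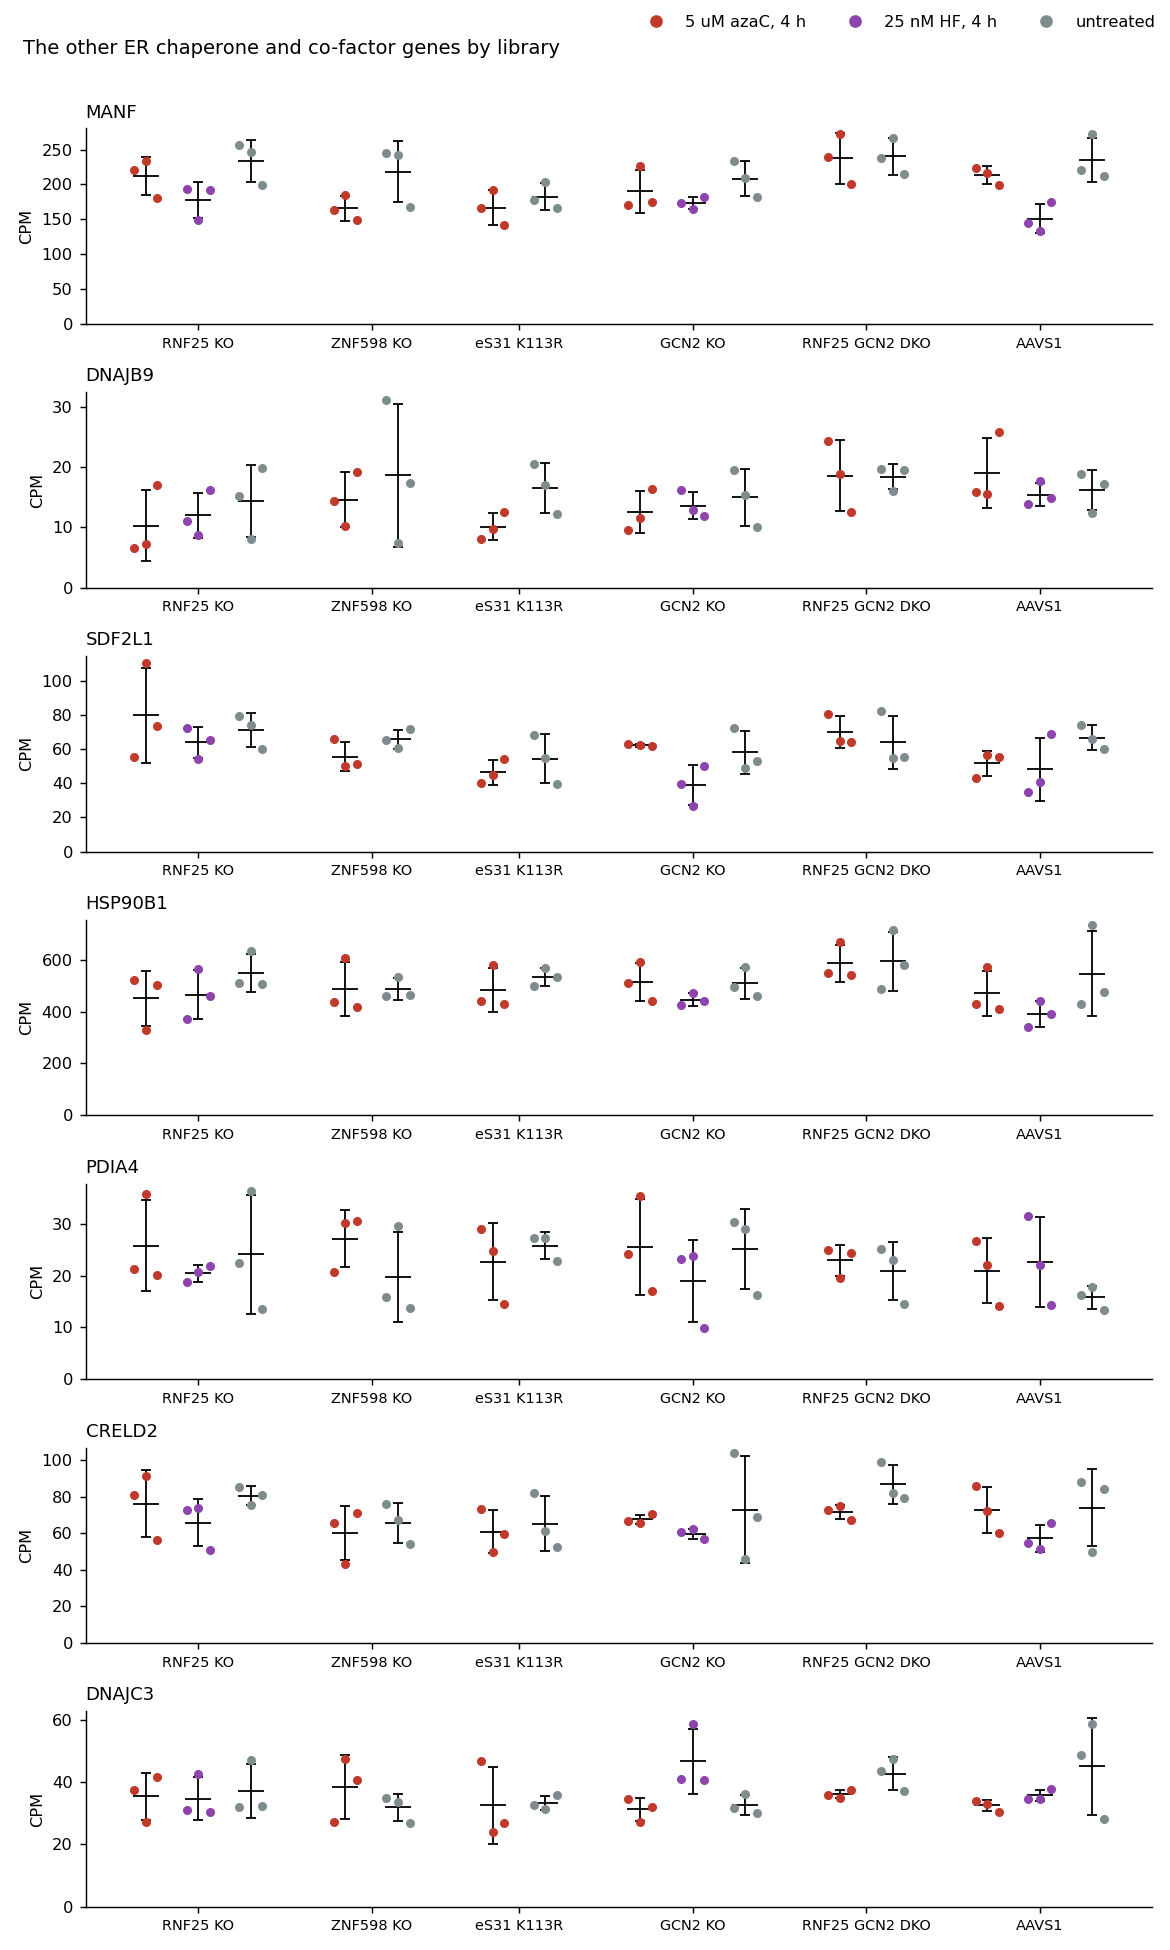
Levels of MANF, DNAJB9, SDF2L1, HSP90B1, PDIA4, CRELD2 and DNAJC3 in CPM (vertical axes, from 0) in each library, drawn as for the plot of HERPUD1, XBP1 and HSPA5, with the mean and SD of 3 libraries. For most of these genes the azaC, HF and untreated points of a line overlap, and group means differ by at most 2.05-fold over the 15 groups, for SDF2L1.

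Taken over the 8 members other than HERPUD1 and XBP1, more log2 changes lay below zero than above in each drug comparison, by as little as 5 against 3. These 8 are those left after setting aside the members that rose, and the lean was not tested. With azaC the number below zero was 6 of 8 in RNF25 KO, 5 in ZNF598 KO, 8 in eS31 K113R, 5 in GCN2 KO, 5 in RNF25 GCN2 DKO and 6 in AAVS1, with medians from -0.19 to -0.02. With HF it was 8 of 8 in RNF25 KO, 7 in GCN2 KO and 7 in AAVS1, with medians of -0.25, -0.28 and -0.40. The median over all genes tested lay between -0.01 and 0.01 in these 9 comparisons. The counts of 8 of 8 did not hold in every alternative. With azaC in eS31 K113R, DNAJC3 was above zero in 3 alternatives, CRELD2 in 2 and PDIA4 in 1, and with HF in RNF25 KO, DNAJB9, PDIA4 and DNAJC3 were each above zero in 1.

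The differences between lines in drug response were tested directly. The HF response of HERPUD1 in GCN2 KO minus that in AAVS1 was -2.66 ± 0.29 on the log2 scale (adjusted p = 6.42e-08), and that of XBP1 was -2.34 ± 0.37 (adjusted p = 0.000118). For HSPA5 the same difference was 0.13, with a 95% interval from -0.33 to 0.59 (adjusted p = 0.973). Thus 2 of 10 members passed, both lower, while 0.271% of all genes tested were called lower. HSPA5 fell in both lines, and a difference of up to 0.59 between its HF responses is within the interval.

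With azaC, the response of HERPUD1 in RNF25 GCN2 DKO minus that in RNF25 KO was -1.56 ± 0.29 (adjusted p = 0.00334), and that of XBP1 was -1.71 ± 0.37 (adjusted p = 0.0257). These are 2 of 10 members, with 0.117% of all genes called lower. The HERPUD1 difference kept its call in every alternative. That of XBP1 was lost without RNF25 KO untreated replicate 1 (-1.56, adjusted p = 0.179) or 3 (0.0767), RNF25 KO azaC replicate 1 (0.0567) or 2 (0.117), RNF25 GCN2 DKO untreated replicate 2 (-1.38, adjusted p = 0.322), or RNF25 GCN2 DKO azaC replicate 1 (0.15) or 3 (0.194), and with only the libraries compared (0.0663). For HSPA5 the difference was 0.15 (95% interval -0.31 to 0.60).

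The azaC response of HERPUD1 in GCN2 KO minus that in AAVS1 was -1.29 ± 0.29, which did not pass (adjusted p = 0.158). With the replicate number as a block it did (-1.30, adjusted p = 0.0198), and without untreated AAVS1 replicate 1 as well (-1.51, adjusted p = 0.0453). Here edgeR, DESeq2 and limma-voom each called 0 of 10 members, and 0.00903% of all genes passed in edgeR. Without adjustment 1 member had a p under 0.05, with 2.53% of all genes.

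Among the lines that keep GCN2, no difference in the azaC response of these genes passed. Against AAVS1 the HERPUD1 response was higher by 0.66 (95% interval 0.09 to 1.23) in RNF25 KO and by 0.91 (0.33 to 1.48) in eS31 K113R, and the XBP1 response by 0.93 (0.20 to 1.66) and 0.76 (0.03 to 1.48), each with an adjusted p of 1. The differences for ZNF598 KO minus AAVS1 were 0.22 (-0.37 to 0.80) and -0.09 (-0.83 to 0.64). In these comparisons 0 of 10 members passed, as did 0% of all genes for RNF25 KO, 0.00903% for eS31 K113R and 0% for ZNF598 KO. At an unadjusted p under 0.05 there were 2 members with 2.75% of all genes for RNF25 KO, 2 with 3.72% for eS31 K113R and 1 with 3.08% for ZNF598 KO. For RNF25 GCN2 DKO minus AAVS1, 0 of 10 members and 0.0451% of all genes passed, and HERPUD1 stood at -0.90 (-1.48 to -0.31). Without adjustment 2 members had a p under 0.05, with 3.32% of all genes. Against RNF25 KO, 0 of 10 members and 0% of all genes passed for eS31 K113R and for ZNF598 KO. The members at an unadjusted p under 0.05 numbered 0 for eS31 K113R, with 4.35% of all genes, and 1 for ZNF598 KO, with 5.49%. DESeq2 and limma-voom called 0 members in these 6 comparisons too. The HF responses of RNF25 KO and AAVS1 differed by -0.26 (-0.83 to 0.31) for HERPUD1 and 0.06 (-0.66 to 0.79) for XBP1, again with 0 of 10 members passing by any of these tools and 0% of all genes passing in edgeR. Without adjustment 0 members had a p under 0.05, with 2.64% of all genes.

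**Figure D4:**
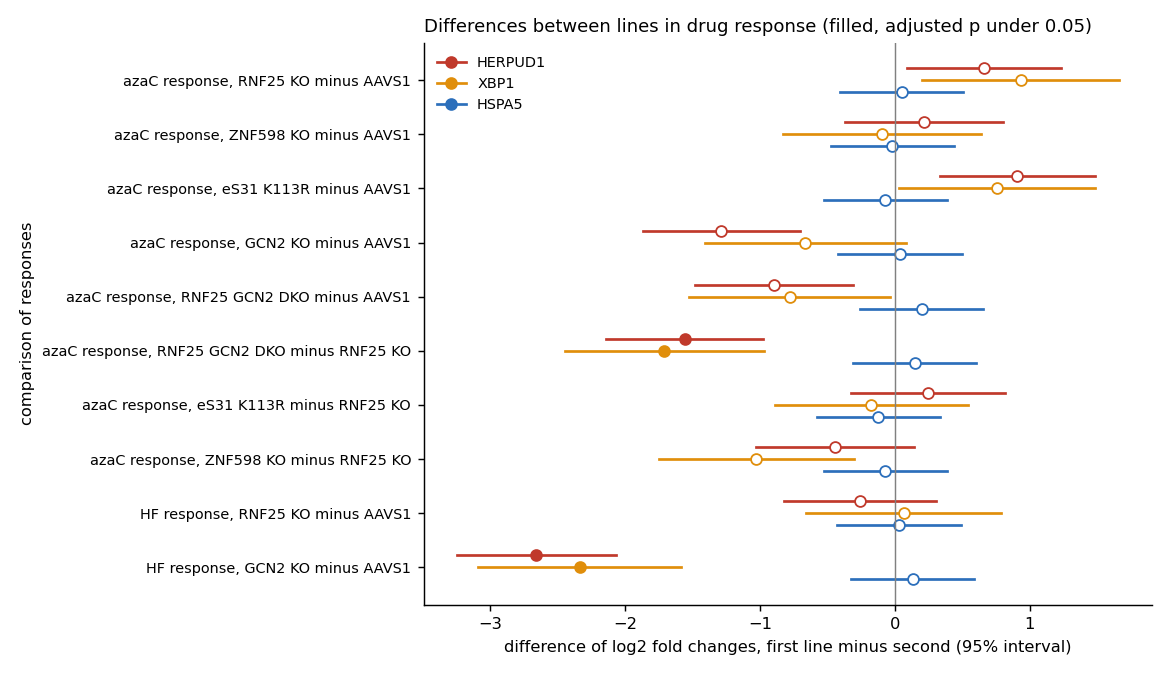
Differences between lines in the log2 drug response of HERPUD1, XBP1 and HSPA5 (horizontal axis, response of the first-named line minus that of the second), with 95% intervals as bars and filled points where the adjusted p was under 0.05. The filled points are HERPUD1 and XBP1 for RNF25 GCN2 DKO minus RNF25 KO with azaC and for GCN2 KO minus AAVS1 with HF, between -2.66 and -1.56.

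The drugs differed in AAVS1 cells. HERPUD1 had 103 ± 2.87 CPM with azaC and 177 ± 31.3 CPM with HF, and XBP1 77.3 ± 16.5 CPM with azaC and 158 ± 9.38 CPM with HF (SD, n = 3 each). The log2 difference, azaC over HF, was -0.78 ± 0.19 for HERPUD1 and -1.02 ± 0.25 for XBP1, both with an adjusted p of 0.0279, while 0.686% of all genes were called lower with azaC. The HERPUD1 call was lost without azaC replicate 1 (adjusted p = 0.0862), 2 (0.119) or 3 (0.104) without HF replicate 1 (0.236) or 3 (0.0561), and with no filter (0.0971). That of XBP1 was lost without azaC replicate 1 (0.0815) or 3 (0.204) and without HF replicate 1 (0.107) or 2 (0.0991).

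In RNF25 KO cells the levels of HERPUD1 and XBP1 did not differ beyond their intervals between the drugs. The azaC over HF difference was 0.14 (95% interval -0.24 to 0.52) for HERPUD1 and -0.16 (-0.64 to 0.33) for XBP1, and edgeR called 0 of 10 members, against 0.731% of all genes. At an unadjusted p under 0.05 there was 1 member, with 13.8% of all genes. It was HSPA5, higher with azaC by 0.59 ± 0.16 (adjusted p = 0.0635), and DESeq2 (adjusted p = 0.011) and limma-voom (0.0482) called it. In AAVS1 HSPA5 stood 0.57 ± 0.16 higher with azaC than with HF (adjusted p = 0.0808), and passed with the replicate block (0.0202), with DESeq2 (0.0147) and without HF replicate 3 (0.0483). In GCN2 KO 0 of 10 members passed, by DESeq2 and limma-voom as well, and 1.07% of all genes passed in edgeR. Members with an unadjusted p under 0.05 numbered 5, with 11.1% of all genes. Doses were not matched between the drugs, and these values compare the treatments as given.

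The contrast within a library does not depend on scaling between libraries. The log2 ratio of HERPUD1 to HSPA5 counts (with 2 counts added to each) averaged -1.45 ± 0.26 in HF-treated and -4.13 ± 0.47 in untreated AAVS1 cells, a difference of 2.67. In azaC-treated AAVS1 cells it averaged -2.79 ± 0.11, or 1.34 above untreated. The corresponding differences were 2.36 with HF and 1.92 with azaC in RNF25 KO, 2.29 with azaC in eS31 K113R and 1.57 with azaC in ZNF598 KO. In GCN2 KO they were -0.09 with HF and 0.02 with azaC, and 0.25 with azaC in RNF25 GCN2 DKO. The XBP1 to HSPA5 ratio differed by 2.49 with HF and 0.87 with azaC in AAVS1, 2.45 and 1.72 in RNF25 KO, 1.65 with azaC in eS31 K113R, 0.77 in ZNF598 KO, -0.02 with HF and 0.15 with azaC in GCN2 KO, and -0.09 with azaC in RNF25 GCN2 DKO. In each comparison of the 4 lines other than GCN2 KO and RNF25 GCN2 DKO the drug and untreated ranges were apart and the exact permutation test, two-sided, gave 0.1, the smallest p that 3 against 3 libraries allow. In GCN2 KO and RNF25 GCN2 DKO it gave 0.3 to 1. In GCN2 KO with HF the ratios hardly moved although HERPUD1, XBP1 and HSPA5 were each lower in CPM than in untreated cells.

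**Figure D5:**
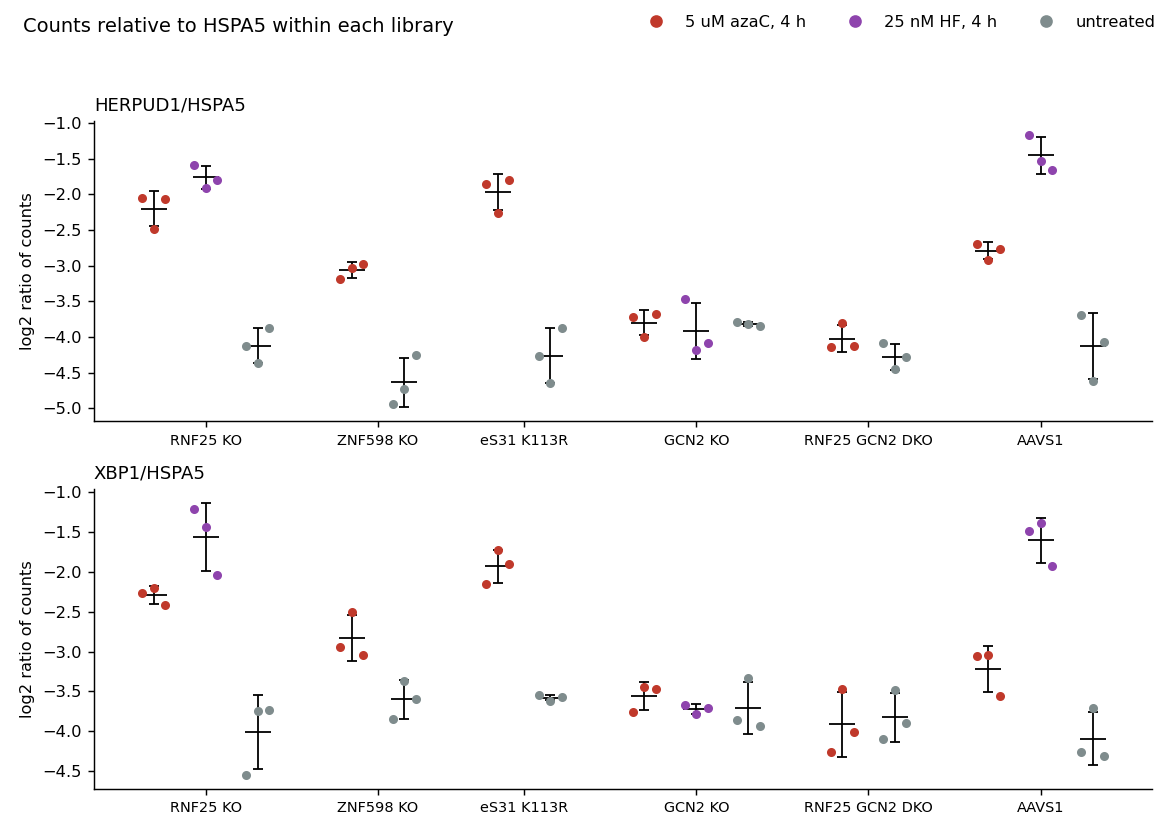
Log2 ratio of HERPUD1 to HSPA5 counts (top) and of XBP1 to HSPA5 counts (bottom) in each library, vertical axes, by line, with azaC, HF and untreated groups from left to right and bars for the mean and SD of 3 libraries. In AAVS1 the HERPUD1 ratio averages -2.79 with azaC, -1.45 with HF and -4.13 untreated, while in GCN2 KO all 3 groups average between -3.91 and -3.80.

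Ordered over the 15 groups, HERPUD1 was highest in azaC-treated eS31 K113R (183 ± 22.7 CPM), HF-treated AAVS1 (177), azaC-treated RNF25 KO (168) and HF-treated RNF25 KO (152), and the library ranges of each neighbouring pair among these overlapped. AzaC-treated AAVS1 (103), azaC-treated ZNF598 KO (75.5) and untreated GCN2 KO (60.2) came next, each apart from the groups directly above and below it. The untreated GCN2 KO range did overlap those of untreated RNF25 KO and untreated AAVS1, further down. The remaining groups, from azaC-treated GCN2 KO (52.3) down to HF-treated GCN2 KO (34.7) and untreated ZNF598 KO (30.6), overlapped from one to the next. XBP1 had the same 4 groups on top, from 189.9 CPM in azaC-treated eS31 K113R to 158 CPM in azaC-treated RNF25 KO, apart from the next group, azaC-treated ZNF598 KO at 91.0 CPM. Below that, each group overlapped the next, down to HF-treated GCN2 KO at 39.5 CPM. HSPA5 ran from 912 CPM in untreated eS31 K113R to 485 CPM in HF-treated AAVS1, with overlap between all neighbours and the 3 HF groups at the bottom.

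Over the 15 group means of log2 CPM, HERPUD1 and XBP1 correlated with r = 0.93, and HERPUD1 and HSPA5 with r = -0.46. The tested genes most like HERPUD1 were DDIT4 (r = 0.96), an inhibitor of mTORC1, STC2 (0.95), a secreted glycoprotein, IFRD1 (0.95), SLC38A2 (0.94), an amino acid transporter, and CHD2 (0.94). Those most like XBP1 were SLC38A2 (0.95), PHGDH (0.95), an enzyme of serine synthesis, ZBED3 (0.95), IFRD1 (0.94) and CHD2 (0.94). Those most like HSPA5 were TUSC2 (0.95), HSPA8 (0.94), the constitutive cytosolic Hsp70, JMJD6 (0.93), and the cytosolic J-domain proteins DNAJA1 (0.93) and DNAJB1 (0.93). Among the other members, MANF and CRELD2 were most alike (r = 0.89). These groups share lines, drugs and a common scaling, so the correlations describe the 15 groups only.

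Other lists of the same pathway are given in edgeR's calls, beside the shares of all genes above. Of 12 tested sensors and regulators of the unfolded protein response, 2 rose with azaC in RNF25 KO, where 0.469% of all genes passed: ATF4, at 923 CPM with azaC and 494 CPM untreated (0.90 ± 0.20, adjusted p = 0.0103), and PPP1R15A, which directs the dephosphorylation of eIF2, at 46.2 and 14.7 CPM (1.64 ± 0.39, adjusted p = 0.0288). PPP1R15A also rose with HF in RNF25 KO, at 39.5 CPM with HF and 14.7 CPM untreated (1.42 ± 0.39, adjusted p = 0.0443), and in AAVS1, at 47.9 and 12.4 CPM (1.98 ± 0.40, adjusted p = 0.00164). With azaC in RNF25 KO, the ATF4 call was lost without untreated replicate 1 or 3 or azaC replicate 2 (adjusted p up to 0.214) and that of PPP1R15A without any untreated replicate or azaC replicate 1 or 2 (up to 0.219). Both were also lost with both libraries that stood apart left out, that of ATF4 with only the libraries compared, and that of PPP1R15A with offsets corrected for GC content. With HF, the PPP1R15A call was lost in RNF25 KO without any untreated replicate or HF replicate 1 or 2 (up to 0.436) and with limma-voom, and in AAVS1 without HF replicate 1 and with only the libraries compared (up to 0.161). Over the 9 drug comparisons, 4 of 108 pairs of gene and comparison passed in edgeR, 5 with DESeq2 and 3 with limma-voom, and 17 had an unadjusted p under 0.05. The 4 edgeR calls are those of ATF4 and PPP1R15A above, and edgeR called no other gene of this list with a drug. The share of all genes at that unadjusted p ran from 2.62% to 11.2% by comparison. Over the alternatives the count in eS31 K113R with azaC, 0 in edgeR, reached 2. The median log2 change of the list lay between -0.06 and 0.30.

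Of 22 other ER chaperones and folding enzymes tested, which include the calnexin and disulfide isomerase families, 1 rose and 1 fell in edgeR in the 9 drug comparisons. Of the 198 pairs of gene and comparison, DESeq2 called 3, limma-voom 2, and 12 had an unadjusted p under 0.05, beside 2.62% to 11.2% of all genes by comparison. ERP29, a chaperone related to disulfide isomerases, rose with HF in AAVS1 to 315 CPM, against 200.3 CPM untreated (0.65 ± 0.17, adjusted p = 0.0276), and SERPINH1, the collagen chaperone, fell with HF in GCN2 KO to 55.4 CPM, against 127 CPM untreated (-1.20 ± 0.29, adjusted p = 0.0194). The ERP29 call was lost without untreated AAVS1 replicate 1 or 2 or any HF AAVS1 replicate, with no filter, with both libraries that stood apart left out and with only the libraries compared (adjusted p up to 0.216), and that of SERPINH1 without untreated GCN2 KO replicate 1 or any HF GCN2 KO replicate (up to 0.296). Of 23 genes of ER-associated degradation, the process HERPUD1 serves, and of 21 of ER translocation and export, 0 passed in any of the 9 comparisons in edgeR. At an unadjusted p under 0.05, at most 4 degradation genes and 3 translocation genes were found in a comparison, and over the 9 comparisons DESeq2 made 2 and 1 calls and limma-voom 1 and 1. Their medians lay between -0.15 and 0.04 and between -0.23 and 0.03, beside medians of all genes between -0.01 and 0.01.

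Target genes of the integrated stress response rose in larger numbers. This list, like the others, was chosen with earlier results of these data known, so its counts are a description and not a test. Of all genes tested, 0% to 0.515% were called with azaC by line, and 0.731% to 1.23% were called higher with HF. Of 19 tested, the number that rose with azaC was 14 in RNF25 KO, 7 in ZNF598 KO, 15 in eS31 K113R, 0 in GCN2 KO, 0 in RNF25 GCN2 DKO and 8 in AAVS1, and the number that rose with HF was 18 in RNF25 KO, 3 in GCN2 KO and 18 in AAVS1. Their median log2 changes with azaC were 2.13, 1.03, 1.89, 0.30, -0.01 and 1.07 in the same order of lines. None was called lower in the 9 drug comparisons, while with HF in GCN2 KO their log2 changes reached down to -2.92. With only the AAVS1 azaC and untreated libraries fitted, 4 rose in AAVS1. HERPUD1, XBP1 and the other members are not on this list, whereas DDIT4, STC2 and PHGDH are.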

How the data were processed

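Gene counts of 45 HAP1 polyA RNA libraries were used as deposited by the authors, as raw counts. Per the submitters' processing notes STAR 2.7.10b, HTSeq 0.9.1 and GRCh38 were used, and per the labels' protocols the library kit was CORALL mRNA-Seq V2. For the annotation release, the strand setting and molecular identifiers the sources used here give nothing. Rows without a symbol in the count table held 0.0286% of counts. Gene positions, exon lengths and transcript GC content are from GENCODE 29.

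The 10 members and all gene lists were chosen with earlier results of these data known. Group means of 15 groups were fitted to 11078 genes with edgeR 4.0.16 (R 4.3.3; TMM scaling, filterByExpr with a minimum count of 10, quasi-likelihood test), and 27 comparisons were tested with Benjamini-Hochberg adjustment within each, at 0.05. CPM use TMM library sizes. The common biological coefficient of variation was 22.1%, with 30 residual degrees of freedom. Values are printed per library for HERPUD1, XBP1, HSPA5 and called members, list genes are named where called, and the 5 tested genes closest to HERPUD1, XBP1 and HSPA5 by Pearson's r are named. Promoters are from RefSeq. No 2 libraries of a group agreed within sampling noise (lowest chi-square per degree of freedom 3.0). The edgeR fit was tested on simulated counts, for azaC against untreated in RNF25 KO only. The other steps were not tested in this way.

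Alternatives were DESeq2 1.42.0, limma-voom (limma 3.58.1), DESeq2 size factors in edgeR, other filters, offsets corrected for GC content, leaving out libraries, fitting only the libraries compared, and the replicate number as a block. The labels do not say what a replicate number marks. In 11 of 17 comparisons of groups, every same-numbered pair deviated together (correlation over 0.1), and not in those of drug groups within RNF25 KO and GCN2 KO.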

Additional observations from a re-analysis of the deposited data

Results flagged for a closer look

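The azaC response of HERPUD1 in RNF25 GCN2 DKO differed from that in RNF25 KO by -1.56 on the log2 scale (SE 0.29, adjusted p = 0.00334), with changes of 0.18 in RNF25 GCN2 DKO and 1.74 in RNF25 KO. The azaC response of XBP1 differed between the same lines by -1.71 (SE 0.37, adjusted p = 0.0257), with changes of -0.20 and 1.51, and this call depended on single libraries.

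The HF response of HERPUD1 in GCN2 KO differed from that in AAVS1 by -2.66 (SE 0.29, adjusted p = 6.42e-08), with changes of -0.80 in GCN2 KO and 1.86 in AAVS1. The HF response of XBP1 differed by -2.34 (SE 0.37, adjusted p = 0.000118), with changes of -0.73 and 1.60. These 4 values stand out because the difference between lines was itself tested and passed. EIF2AK4 was at 39.3 CPM in the untreated libraries labelled RNF25 GCN2 DKO and at 21.8 CPM in untreated GCN2 KO, and the part of this in the first pair of results was not tested.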

How the results depend on the processing

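Of the 270 pairs of member and comparison, 21 were called, and 12 of these kept their call in every alternative run. No called value changed sign in any of them, and 3 of the 249 other pairs gained a call in some alternative. The number of members called higher with azaC in AAVS1 was 1, against 0 with both libraries that stood apart left out or with only the libraries compared, and 0 to 1 with 1 library left out. In eS31 K113R it was 2, against 1 with only the untreated library titled eS31 K113R. With HF, the number called lower in GCN2 KO was 2, against 1 with limma-voom, with no filter or with only the libraries compared, and 0 to 2 with 1 library left out. In AAVS1 it was 2, against 1 with no filter or with both libraries that stood apart left out, 0 with only the libraries compared, and 1 to 2 with 1 library left out. For the azaC response of GCN2 KO minus AAVS1 it was 0, against 1 with the replicate block and 0 to 1 with 1 library left out. For RNF25 GCN2 DKO minus RNF25 KO it was 2, against 1 with only the libraries compared and 1 to 2 with 1 library left out. For azaC against HF, the number called higher in RNF25 KO was 0, against 1 with DESeq2, limma-voom, a minimum count of 30 or the replicate block. In AAVS1 the number higher was 0, against 1 with DESeq2 or the replicate block and 0 to 1 with 1 library left out, and the number lower was 2, against 1 with no filter and 0 to 2 with 1 library left out. Fitting only the libraries compared leaves fewer residual degrees of freedom. The cause of the changes given here, those of that fit included, was not tested.

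Over all genes, azaC called 52 in RNF25 KO (97 with the replicate block, 110 with no filter, 26 with only the libraries compared, 29 to 88 with 1 library left out), 57 in eS31 K113R (88 with the block, 34 to 49 with 1 library left out) and 13 in AAVS1 (30 with no filter, 4 with only the libraries compared, 9 to 25 with 1 library left out). HF called 192 in RNF25 KO (407 with the block, 111 to 218 with 1 library left out), 137 in GCN2 KO (250 with the block, 45 to 108 with 1 library left out) and 171 in AAVS1 (381 with the block, 67 with only the libraries compared, 100 to 206 with 1 library left out). The block changed no other call of a member. Totals of 1135498 to 2478875 counts limit DNAJB9 and PDIA4 most.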
